A study of Homo sapiens with 4 samples.

Results

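Small structured non-coding RNAs are described here as bound by the dipeptide protein PR100. They are 10 genes taken by their GENCODE gene names out of 62700 annotated genes, namely the 7SK RNA gene RN7SK, the signal recognition particle RNA genes RN7SL1 and RN7SL2, the ribozyme RNA genes RMRP and RPPH1, the major spliceosomal snRNA genes RNU4-2 and RNU5A-1 and the minor spliceosomal snRNA genes RNU11, RNU12 and RNU4ATAC. The genes were listed by name and not by a measured value. The study asked which RNAs are contacted by PR100, a chain of proline-arginine repeats of the kind translated from the expanded repeat of C9orf72 in amyotrophic lateral sclerosis and frontotemporal dementia. It used iiCLIP, in which UV light joins a protein to the RNA it touches, a FLAG antibody pulls the protein down, and reverse transcription stops at the joined nucleotide. Each collapsed cDNA is 1 crosslinking event, assigned to the nucleotide before the start of the cDNA. The 4 libraries came from HEK293T, a transformed human embryonic kidney line, transiently transfected with a PR100-FLAG plasmid under doxycycline at 150 ng/ml for 24 h and irradiated with 160 mJ/cm2 at 254 nm. The complexes were run on SDS-PAGE gels in replicates 1 to 3 and kept on beads in replicate 4, and the random barcode was 5 nt long in replicate 3 and 7 nt long in the others. PR100 was overexpressed from a plasmid in all 4 libraries, so they are 1 condition, and libraries of the controls or of GA100 are not analysed here. Nothing in the labels says that the replicates were separate cultures, so a p-value measures only the spread between these libraries.

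These RNAs work as the scaffolds or the catalysts of ribonucleoprotein particles. 7SK RNA holds the transcription elongation kinase P-TEFb in an inactive complex, 7SL RNA is the core of the signal recognition particle that takes ribosomes to the endoplasmic reticulum, and RMRP and RPPH1 are the RNA subunits of RNase MRP and RNase P, which process ribosomal RNA precursors and tRNA precursors. U4 and U5 are parts of the tri-snRNP of the major spliceosome, whereas U11, U12 and U4atac serve the minor spliceosome, which removes a rare class of introns. All of them are short and strongly folded, and several have many near-identical copies in the genome.

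The stretches that held most events are shown because the results turn on where in each RNA the events lay. They were read from the genome build GRCh38 on the strand of the gene, 5′ to 3′, with capitals at the positions with the most pooled events. RN7SK is shown in its last 128 nt (chr6:52995821-52995948, plus strand, capitals at 15 or more events). RNU12 is shown whole (chr22:42615244-42615393, plus strand, capitals at 15 or more events), and so is RNU11 (chr1:28648600-28648733, plus strand, capitals at 5 or more events).
RN7SK: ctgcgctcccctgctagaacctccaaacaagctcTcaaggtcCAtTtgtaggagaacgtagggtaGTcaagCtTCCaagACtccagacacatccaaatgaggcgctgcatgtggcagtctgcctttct
RNU12: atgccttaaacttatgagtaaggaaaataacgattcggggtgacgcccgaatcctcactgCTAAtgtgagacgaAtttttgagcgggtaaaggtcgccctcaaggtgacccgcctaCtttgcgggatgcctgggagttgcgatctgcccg
RNU11: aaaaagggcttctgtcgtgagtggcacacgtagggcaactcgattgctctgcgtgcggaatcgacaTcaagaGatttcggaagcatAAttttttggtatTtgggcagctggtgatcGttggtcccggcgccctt
The stretch of RN7SK held 587 of its 616 events (95.3%), with 285 on the 12 capitals. In RNU12, 229 of 345 events (66.4%) lay on 6 capitals. The 4 neighbouring capitals of RNU12 at positions 61 to 64 carried events in all 4 libraries, while the single capital A at position 75 did not.

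The 4 libraries held 334057, 604816, 125694 and 179636 events, so that 1 event was worth 1.65 to 7.96 CPM, the count scaled to a library total of 1000000. The totals of replicates 3 and 4 were under the minimum per library that the methods of the study state, which may refer to another count. Mitochondrial transcripts took 1.30 to 6.52% of the events. Together the 10 RNAs had 1243 of the 1244203 pooled events. They made up 0.0745%, 0.0959% and 0.0764% of the SDS-PAGE replicates 1, 2 and 3 and 0.177% of the beads library.

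Uniquely mapped events of PR100 were spread very unequally over the 10 RNAs. RNU12 and RN7SK were the most densely crosslinked by these reads, RNU11 followed, and RNU4ATAC had hardly any events. Members with copies elsewhere in the genome are lower bounds. Of the stretches of 30 nt, 0% were unique in RN7SL1, 4.07% in RN7SL2, 9.40% in RN7SK, 57.7% in RNU4-2 and 58.1% in RNU5A-1. In RNU11 and RNU12 87.5% and 89.2% were unique, and in RMRP, RPPH1 and RNU4ATAC 99.1 to 100%. For members with copies, low crosslinking and loss of reads in mapping cannot be told apart. Density is given as CPM per 100 nt of the annotated gene. The order of the mean densities was RNU12 with 200 ± 98.5 (SD, n = 4), RN7SK with 161 ± 93.8, RNU11 with 42.6 ± 18.9, RMRP with 20.7 ± 24.0, RNU5A-1 with 18.04 ± 13.95, RNU4-2 with 15.1 ± 14.9, RN7SL1 with 13.6 ± 8.97, RN7SL2 with 5.99 ± 8.59, RPPH1 with 5.36 ± 5.43 and RNU4ATAC with 1.30 ± 2.60. The median density of the 10 was 9.84, 16.4, 3.43 and 32.2 in replicates 1 to 4. Between neighbours in this order, a two-sided sign-flip permutation test, run exactly, cannot give a p below 0.125 with 4 libraries, so that none of the 9 pairs could pass (adjusted p = 1 for each). RN7SK was above RNU11 in 4 of 4 libraries, by 118 ± 103 CPM per 100 nt (SD, p = 0.125, exact, before adjustment), and this was the only pair of neighbours in which 1 was the higher in all libraries. The other 8 differences were smaller than their SD. RNU12 and RN7SK each led in 2 libraries, and their order turned when replicate 3 was left out or when each position was counted once. The beads library raised several of the lower means. Without replicate 4, RMRP had 9.29, RNU4-2 had 8.23, RPPH1 had 3.25 and RN7SL2 had 1.80 CPM per 100 nt, and RMRP then lay below RNU5A-1 with 14.5. Without replicate 2, RNU4ATAC had 0 events. The place of RNU5A-1 also depended on where the gene was taken to begin, since with 5 nt upstream included it had 54.8 ± 32.1 CPM per 100 nt of annotated length and came before RNU11.

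**Figure D1:**
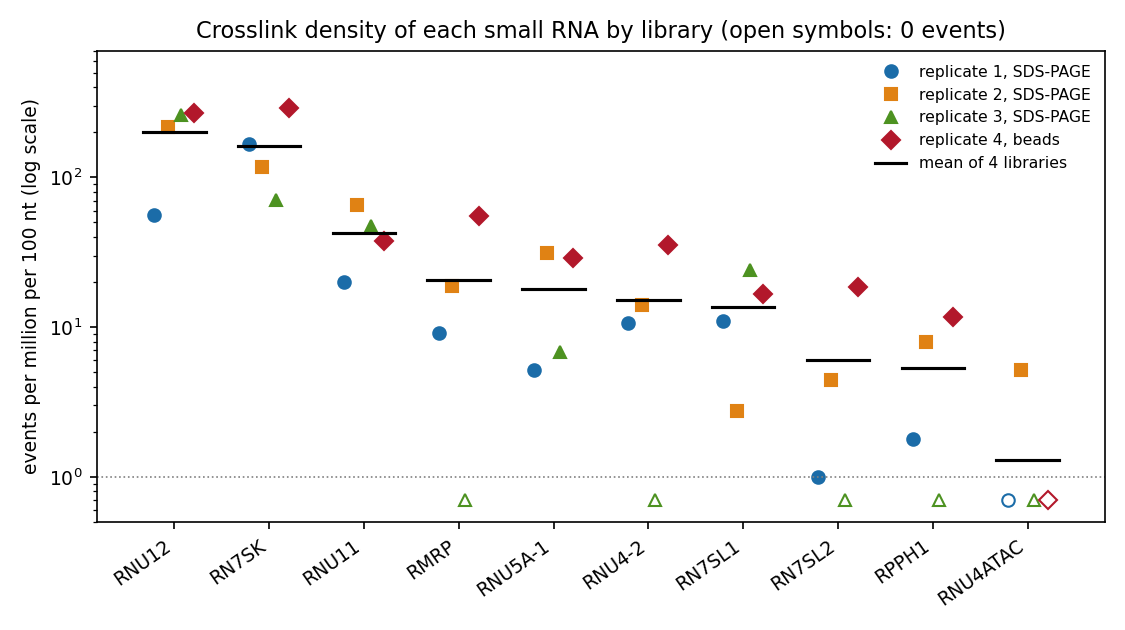
Crosslink density of the 10 small RNAs in each library, in CPM per 100 nt on a log axis, with 1 symbol per library and a black line at the mean of the 4 libraries. Open symbols under the dotted line are libraries with 0 events. RNU12 and RN7SK lie above 50 CPM per 100 nt in every library, and RNU4ATAC has events in replicate 2 only.

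Against all annotated genes, RN7SK, RNU12 and RNU11 were among the more heavily crosslinked. RN7SK and RNU12, 2 of the 10, held at least 200 pooled events. Of all annotated genes 1.22% did, and 0.0737% of the genes of at most 400 nt. The study used this minimum for genes together with low binding in its controls, which was not checked here. A pooled significant cluster of crosslinked positions lay in 8 of the 10, all but RPPH1 and RNU4ATAC, beside 4.53% of all genes and 2.27% of the short ones, most of which had few events or none. At 20 or more pooled events a cluster was usual in short genes. It was found in 7 of the 8 members with that many, in 97.7% of the genes of at most 400 nt and in 25.5% of all genes. RN7SK and RNU12 were the members with a cluster in every single library. Ranked by pooled events per exonic length among the 29263 genes with an event, RNU12 was number 8, RN7SK number 13 and RNU11 number 56, while RNU4ATAC was number 650. RNA abundance was not measured here, so these ranks do not separate a preference of PR100 from the amount of each RNA. The median over the 10 members was 21.3 pooled events per 100 exonic nt, compared with 0.0992 over all genes with an event, 1.57 over short genes with an event and 35.8 over the 177 short genes with at least 20 events, a floor that 8 of the 10 members passed. RN7SK, RNU12, RNU11, RN7SL2, RPPH1 and RNU4ATAC each share their strand with a second annotated gene, so an event there belongs to both.

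Nearly all events lay on the strand of the RNA. The sense strand took 249 of 249, 580 of 580, 96 of 97 and 318 of 318 events in replicates 1 to 4 (p = 0.125 against an even split, exact two-sided sign-flip permutation test). Reads of an RNA fall on its own strand whether or not PR100 bound it, so this test says nothing on binding. The opposite strand of the same spans was counted in the same way, and its single event lay at RN7SL2 in replicate 3. It does not measure the background of the pull-down, for which the controls were not analysed. In the 200 nt downstream of the 10 genes no event was found.

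RN7SK (ENSG00000283293.1, chr6:52995621-52995948, plus strand), the scaffold of the P-TEFb inhibitory complex, had the most events of the 10. It had 183, 234, 29 and 170 events in replicates 1 to 4, or 167, 118, 70.3 and 289 CPM per 100 nt. The beads library was the highest and replicate 3 the lowest. In replicate 3 the 29 events sat on 6 positions, whereas the 170 events of replicate 4 were spread over 61.

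The events of RN7SK lay almost entirely in its 3′ part. There were 5 pooled events at positions 1 to 82, 8 at 83 to 164, 228 at 165 to 246 and 375 at 247 to 328, so that 2.11% lay in the 5′ 50% of the RNA. The busiest 20 nt, positions 264 to 283, held 250 events (40.6%), with shares of 27.9%, 44.4%, 69.0% and 44.1% in replicates 1 to 4. The single positions with the most events were A244 with 39, U235 with 33, U267 with 28 and U274 with 27. A244 and U235 had no event in replicate 3, and 25 of the 39 events at A244 were from replicate 1.

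How well a read can be placed changed along RN7SK in the same direction. Only reads that mapped to a single place were kept, and RN7SK has many copies. At positions 1 to 164 the shortest stretch with no exact copy elsewhere in GRCh38 had a median of 113 nt, and 0 of the 164 starts had one of at most 40 nt. At positions 165 to 328 the median was 37 nt, and 87 of 164 starts were unique within 40 nt. Those 87 starts took 547 of the 603 events of that part, with 8.39 events per such start at positions 165 to 246 and 5.53 at 247 to 328. Low crosslinking at positions 1 to 164 and loss of its reads in mapping cannot be told apart, and the total of RN7SK is a lower bound.

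**Figure D2:**
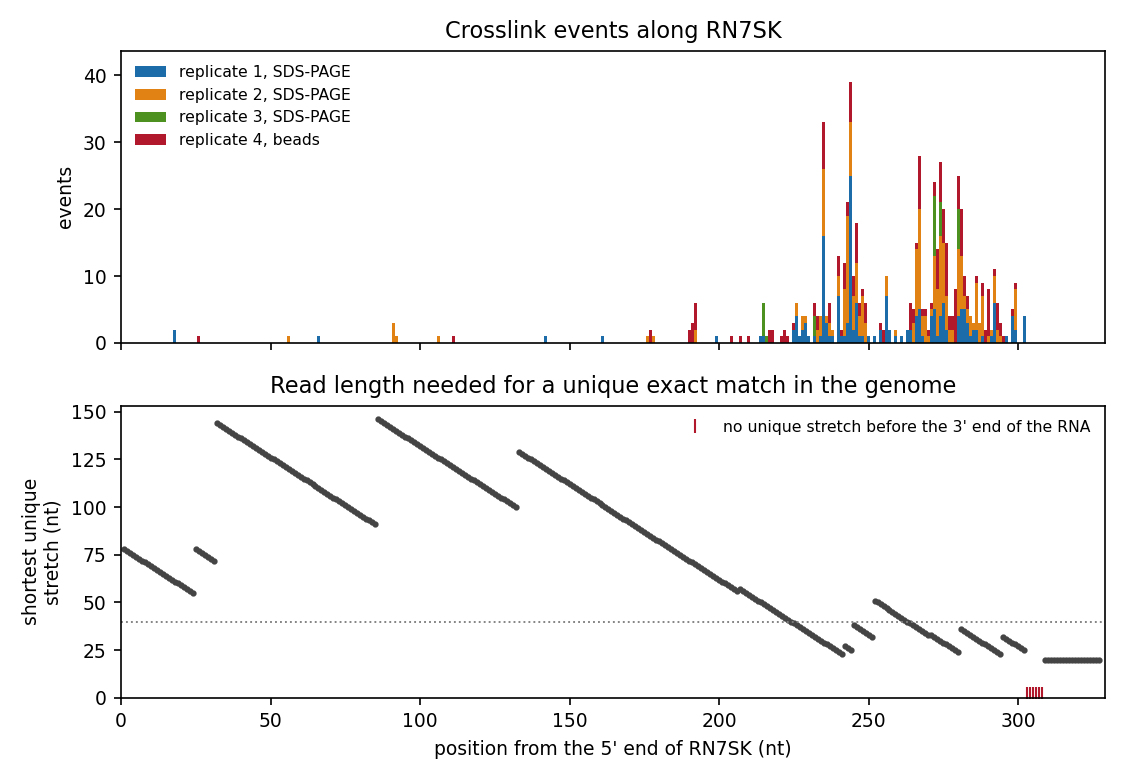
Upper panel, pooled events at each position of RN7SK, stacked by library, against the distance from its 5′ end in nt. Lower panel, the shortest stretch from each position with no exact copy elsewhere in the genome (nt, values of 20 stand for 20 or less), with a dotted line at 40 nt and red ticks where no stretch before the 3′ end is unique. Positions 165 to 328, with 603 events, have a median shortest unique stretch of 37 nt, and positions 1 to 164, with 13 events, one of 113 nt.

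The partner proteins of 7SK were represented by their own transcripts. All 7 listed genes (LARP7, MEPCE, HEXIM1, HEXIM2, CDK9, CCNT1 and CCNT2) had an event, as did 84.2% of all protein-coding genes and 46.7% of all annotated genes. None of the 7 reached 200, and 2 held a cluster, beside 1.22% and 4.53% of all annotated genes. CCNT1, which encodes the cyclin of P-TEFb, had the most with 120 pooled events, and HEXIM1, the inhibitor that 7SK brings to the kinase, had 37. Their median of 0.965 events per 100 exonic nt lay far under the 188 of RN7SK on the same scale. Neither value was corrected for RNA abundance, which was not measured here.

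The signal recognition particle RNAs were weakly represented in uniquely mapped reads. RN7SL1 (ENSG00000276168.1, chr14:49586580-49586878, plus strand) had 11, 5, 9 and 9 events in replicates 1 to 4, or 11.01, 2.76, 23.9 and 16.8 CPM per 100 nt. RN7SL2 (ENSG00000274012.1, chr14:49862550-49862849, minus strand) had 1, 8, 0 and 10 events, or 0.998, 4.41, 0 and 18.6 CPM per 100 nt. The libraries of RN7SL1 and RN7SL2 overlapped, and their difference of 7.63 ± 12.2 CPM per 100 nt was within the spread (higher in 2 of 4, p = 0.5, exact sign-flip permutation test).

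Both 7SL RNAs had their events near the 3′ end, 31 of 34 at positions 226 to 299 for RN7SL1 and 19 of 19 at positions 226 to 300 for RN7SL2. The position with the most events was number 253 in both, with 12 events in RN7SL1 and 10 in RN7SL2. In RN7SL1, position 247 had 9 events, which were all the events of replicate 3. The RNAs are 98.3% identical. None of the 269 stretches of 30 nt in RN7SL1 was unique, and a single such stretch had up to 43918 exact copies, since 7SL is the origin of the Alu repeats. Over the 5′ 50% of the RNA the shortest unique stretch had a median of 171 nt in RN7SL1 and 162.5 nt in RN7SL2. The events of these genes are therefore lower bounds, and their position along the RNA and the uniqueness of the reads cannot be told apart. A further 7SL gene, RN7SL3, had 0 events.

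Genes of the signal recognition particle proteins had events in 8 of 8 cases (84.2% of all protein-coding genes), from 15 for SRP14 to 73 for SRP72, which binds the 7SL RNA together with SRP68. None reached 200 pooled events, and 1 held a cluster, beside 1.22% and 4.53% of all annotated genes. Their median was 0.614 events per 100 exonic nt.

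The ribozyme RNAs RMRP and RPPH1 had few events spread over their whole length. RMRP (ENSG00000277027.1, chr9:35657754-35658017, minus strand) had 8, 30, 0 and 26 events in replicates 1 to 4, or 9.07, 18.8, 0 and 54.8 CPM per 100 nt. RPPH1 (ENSG00000277209.1, chr14:20343075-20343407, minus strand) had 2, 16, 0 and 7 events, or 1.80, 7.94, 0 and 11.7 CPM per 100 nt. Both were highest in the beads library and had no event in replicate 3. In CPM not divided by length, 0 events there allow up to 23.87 (3 counts, counting error only). On that scale RMRP had 23.95, 49.6 and 145 CPM in replicates 1, 2 and 4, and RPPH1 had 5.99, 26.5 and 39.0. For both genes replicates 2 and 4 lay above this limit, while replicate 1 was close to it for RMRP and below it for RPPH1. RMRP was above RPPH1 in 3 of 4 libraries, by 15.3 ± 19.1 CPM per 100 nt (p = 0.25, exact sign-flip permutation test).

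The 64 events of RMRP were divided into 21 at positions 1 to 66, 10 at 67 to 132, 17 at 133 to 198 and 16 at 199 to 264. A206 had 10 of them, from replicates 1, 2 and 4. The 25 events of RPPH1 lay at 17 positions with at most 3 at any, and none was in a pooled cluster. Both genes are nearly free of copies, since 232 of 234 stretches of 30 nt in RMRP and 303 of 303 in RPPH1 were unique. Just upstream of RMRP, 14 more events lay within 5 nt of its annotated start, 12 of them in replicate 2. Of the 11 genes for RNase P and RNase MRP proteins, 10 had an event (84.2% of all protein-coding genes), with 78 for RPP14 as the highest. None held a cluster, beside 4.53% of all annotated genes. The median of the 11 was 0.329 events per 100 exonic nt.

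The major spliceosomal snRNAs U4 and U5 had intermediate levels within the annotated genes. RNU4-2 (ENSG00000202538.1, chr12:120291763-120291903, minus strand) had 5, 12, 0 and 9 events in replicates 1 to 4, or 10.6, 14.1, 0 and 35.5 CPM per 100 nt. RNU5A-1 (ENSG00000199568.1, chr15:65296051-65296166, plus strand) had 2, 22, 1 and 6 events, or 5.16, 31.4, 6.86 and 28.8 CPM per 100 nt. For RNU4-2 the beads library was the highest, and for RNU5A-1 it was replicate 2. In RNU4-2, 18 of the 26 events lay at positions 72 to 106 and none beyond.

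The events of RNU5A-1 gathered at its 5′ end and around U72. Within the annotated gene, 18 of 31 events were at positions 1 to 29, and U72 had 7, all from replicate 2. A further 43 events lay in the 5 nt before the annotated start, more than in the gene itself. Of these, 24 were at the nucleotide just before the first, with 4, 9, 6 and 5 in replicates 1 to 4. A cDNA that runs to the very end of an RNA is assigned to that nucleotide by the convention of the method. The other members had 0 to 20 events in those 5 nt, with 20 for RNU12, and the density of RNU5A-1 was 54.8 with them and 18.04 without them.

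Other spliceosomal snRNA genes were lower by their median, but not in every case. Of 18 listed genes, 11 had an event, none reached 200 pooled events, and 6 held a cluster. Among all annotated genes the shares were 46.7%, 1.22% and 4.53%. The highest were RNU5E-1 with 86, RNU5F-1 with 60, RNU2-2P with 51 and RNU4-1 with 30 events, which are variants of U5, U2 and U4. The median was 1.38 events per 100 exonic nt. RNU5E-1 had 71.7 and RNU5F-1 had 51.3 on this scale, above the 26.7 of RNU5A-1 and the 18.4 of RNU4-2. For these multicopy genes, too, only uniquely mapped reads were counted. RNU1-1, RNU1-3 and RNU1-4, which encode the abundant U1, had 0 events.

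The minor spliceosomal snRNAs ranged from the most densely crosslinked of the 10 to the least. RNU12 (ENSG00000276027.1, chr22:42615244-42615393, plus strand), whose RNA pairs with the branch site of minor introns, had 28, 196, 49 and 72 events in replicates 1 to 4, or 55.9, 216, 260 and 267 CPM per 100 nt. RNU11 (ENSG00000274978.1, chr1:28648600-28648733, plus strand), whose RNA pairs with their 5′ splice site, had 9, 53, 8 and 9 events, or 20.1, 65.4, 47.5 and 37.4 CPM per 100 nt. RNU4ATAC (ENSG00000264229.1, chr2:121530881-121531007, plus strand), the minor counterpart of U4, had 4 events in replicate 2 and 0 in the other libraries. RNU12 was low in replicate 1 and close together in the rest. It exceeded RNU11 in 4 of 4 libraries, by 157 ± 87.8 CPM per 100 nt, and RNU4ATAC in 4 of 4, by 198 ± 98.3 (p = 0.125 each, adjusted p = 0.313 over the 5 pairs compared, exact sign-flip permutation test). RNU4ATAC is unique in all 97 stretches of 30 nt. RNU6ATAC, its pairing partner in the minor spliceosome, had 1 event.

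In RNU12 most events lay in a window of 20 nt. Positions 58 to 77 held 258 of the 345 events (74.8%), or 46.4%, 81.6%, 75.5% and 66.7% in replicates 1 to 4, although they are 13.3% of its length. Within that window there were 2 groups of positions. C61, U62, A63 and A64 had 26, 23, 25 and 42 events and were hit in every library. A75 had the most with 76, of which 72 were from replicate 2, 4 from replicate 4 and 0 from replicates 1 and 3. Without A75 the window still held 67.7% of the remaining 269 events. A further site, C117, had 37 events, with 6, 20, 5 and 6 in replicates 1 to 4. RNU12 is unique in 107 of 120 stretches of 30 nt, and the 344 events with 30 nt left before the 3′ end all began a unique stretch.

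RNU11 had its events at 20 positions, and 62 of 79 events lay at positions 68 to 101. Positions 69 to 88 held 46 events (58.2%), with 6 of 9, 35 of 53, 0 of 8 and 5 of 9 in replicates 1 to 4. In replicate 3 the 8 events sat on 2 positions, with 6 of them at G117, where no other library had any. A87 with 16 and A88 with 12 events were the top positions, 22 of the 28 from replicate 2.

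**Figure D3:**
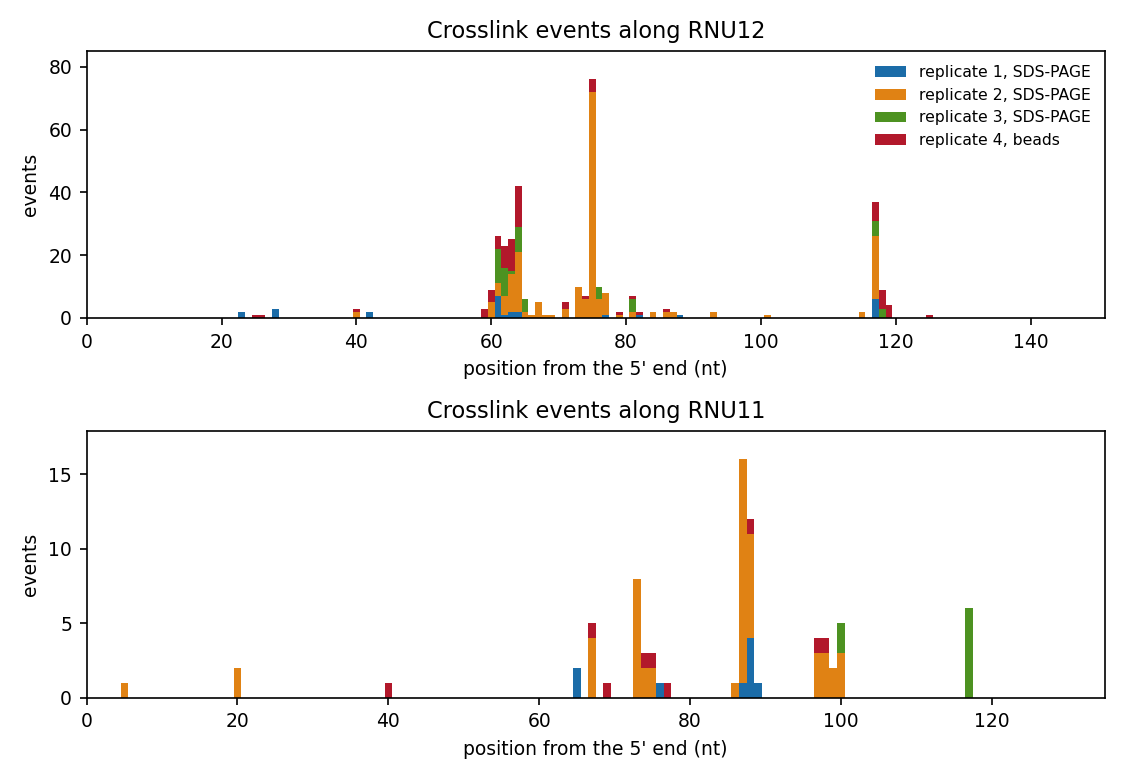
Pooled events at each position of RNU12 (top) and RNU11 (bottom), stacked by library, against the distance from the 5′ end in nt. In RNU12 the group at positions 61 to 64 has all 4 colours, whereas the peak at position 75 is almost entirely replicate 2; in RNU11 the peak at positions 87 and 88 holds 28 of 79 events.

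The top positions of RNU12 and RNU11 lay at the same letters, AATTTTT. In snRNAs an A followed by a run of U is the site on which the ring of Sm proteins assembles. The letters were searched on the strand of the RNA after the top positions had been seen. They occurred once in each of the 5 snRNA members and in none of the other 5 members, and 2.65% of the 12217 genes of at most 400 nt hold them on the gene strand and 3.63% on the opposite strand. In RNU12 the 2 A of this run, A74 and A75, had 83 events (24.1%), with 0, 78, 0 and 5 in replicates 1 to 4. In RNU11 its A87 and A88 had 28 (35.4%), with 5, 22, 0 and 1. These shares rest largely on replicate 2. In RNU5A-1 the same 2 letters had 3 of 31 events, and in RNU4-2 and RNU4ATAC they had 0.

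Genes for U4/U5 and minor snRNP proteins had events in 17 of 17 cases, beside 84.2% of all protein-coding genes. PRPF8, the central protein of the spliceosome, with 298 and SNRNP200, the helicase that unwinds U4 from U6, with 204 pooled events were the 2 that reached 200. Of all annotated genes 1.22% did. The median of the 17 was 0.592 events per 100 exonic nt.

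Across the 10 RNAs, events lay more often on nucleotides predicted to be unpaired. Each RNA was folded by itself to its minimum free energy, which is a prediction and not a measured structure. Of the nucleotides 37.2% were unpaired, and of the events 57.4%, 66.9%, 75% and 55.7% in replicates 1 to 4 (63.7 ± 8.98% SD, higher in 4 of 4, p = 0.125, exact two-sided sign-flip permutation test). RNU12 had 94.5 ± 5.00% of its events on unpaired nucleotides, which are 42.7% of its length. RNU11 had 83.2 ± 14.4% against 38.8%. RN7SK did not show this. Its share was 35.9 ± 11.2% against 39.6% of nucleotides and was above it in 1 of 4 libraries. Without RN7SK the share rose to 86.8 ± 8.43%, and without RNU12 the excess was 13.2 ± 4.98 percentage points.

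The crosslinked nucleotide was on average more often U or A than the sequences would give. U took 28.9%, 26.7%, 34.4% and 33.6% of the events in replicates 1 to 4 and 21.9% of the nucleotides (30.9 ± 3.70%, higher in 4 of 4, p = 0.125, exact sign-flip permutation test). G was the least frequent, with 12.7 ± 2.20% of events and 29.97% of nucleotides. A had 29.5 ± 9.09% of events and 20.3% of nucleotides, and C had 26.9 ± 7.84% and 27.8%.

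The share of events near GANGA motifs rested on RNU12. GANGA, with A, C or G as N, was searched on the strand of the RNA. An event counted as near if the first letter of a motif stood at most 5 nt before or at most 30 nt after it. The shares were 9.64%, 27.8%, 34.4% and 17.9% in replicates 1 to 4, and 12.7% of the nucleotides were near a motif (22.4 ± 10.9%, higher in 3 of 4, p = 0.25, exact sign-flip permutation test). The 10 RNAs held 11 motifs, some overlapping, with 1 GAAGA, in RN7SK. Of the genes of at most 400 nt, 47.5% hold such a motif on the gene strand and 31.4% on the opposite strand. RNU12 has a single one, GACGA at position 70, which partly overlaps the AATTTTT letters at position 74. Near it lay 245 of its 345 events, or 65.4 ± 10.97% against 24.0% of nucleotides. RNU4-2, 141 nt long and with 0 events in replicate 3, also has a single GACGA, at position 90, and 21 of its 26 events were near it. In RN7SK, with 5 motifs between positions 141 and 167, 0.420 ± 0.527% of events were near one, against 18.9% of nucleotides. All but the last of these motifs begin at positions 1 to 164, where 0 starts were unique within 40 nt. Without RNU12, but with RN7SK, the share of events minus the share of nucleotides was -9.13 percentage points (below 0 in 4 of 4 libraries). Without RN7SK, but with RNU12, it was 30.2 points, or 41.7 ± 7.42% against 11.6% (above 0 in 4 of 4).

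The 5′ 50% of the RNAs held 27.2 ± 9.94% of events (below an even share in 4 of 4, p = 0.125, exact sign-flip permutation test). This came with RN7SK, since without it the share was 50.9 ± 4.98%. RNU12 had 70.5 ± 3.98% in its 5′ 50%, of which A75 is the last nucleotide, and RNU11 had 14.4 ± 10.5%.

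**Figure D4:**
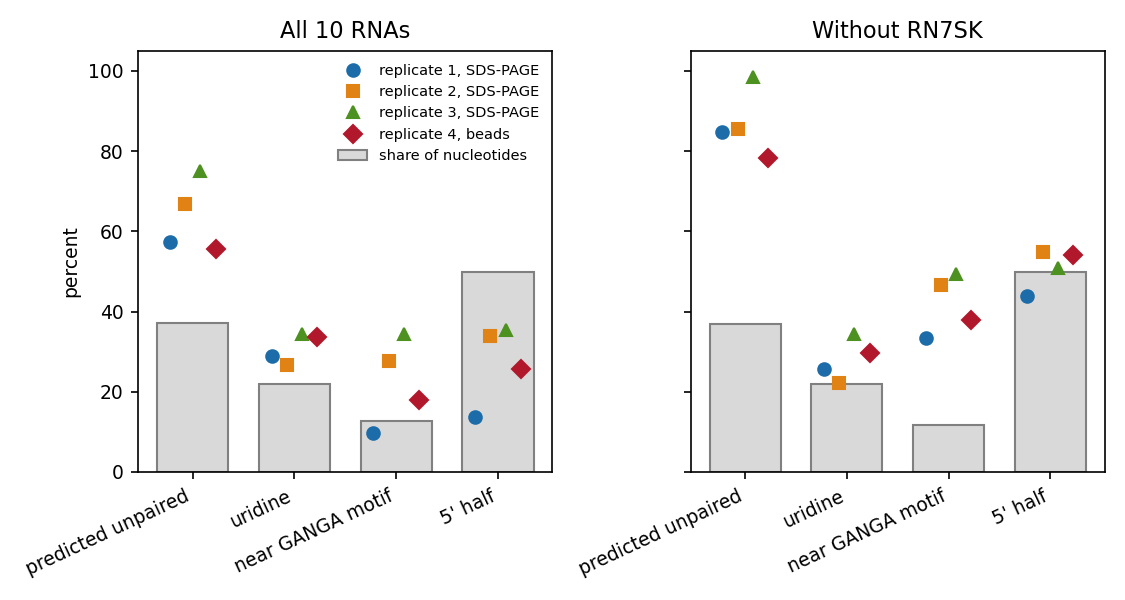
Share of events in each library (symbols, percent) and share of nucleotides (grey bars, percent) that were predicted unpaired, were uridine, lay near a GANGA motif or lay in the 5′ 50% of the RNA, for all 10 RNAs (left) and without RN7SK (right). The unpaired shares lie above the bar in all 4 libraries on both sides, and the 5′ shares lie below it in all 4 libraries only when RN7SK is included.

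The purification was compared as beads, 1 library, against SDS-PAGE, 3 libraries, so that the beads library and the method cannot be told apart. Most of the 8 testable members were higher in the beads library, but none passed the test. Over the 10314 genes with at least 20 pooled events, edgeR's quasi-likelihood test called 0 genes at an adjusted p of 0.05, DESeq2 called 0, and 187 genes had an unadjusted p under 0.05 in edgeR. RMRP had a log2 fold change of 2.27 ± 1.04 (SE) and RN7SK of 1.23 ± 0.54, with unadjusted p of 0.042 and 0.0356 and an adjusted p of 0.9998 in edgeR for both. RNU12 had 0.55 ± 0.67 and RNU11 had -0.32 ± 1.05. The CPM of the beads library lay above every SDS-PAGE library for 5 of the 8, beside 28.4% of all genes tested, and below every one for 0 of the 8, beside 19.2%. The floor of 20 pooled events counted the beads library too, for the members and for all genes. RNU4-2 and RPPH1, both among the 5, passed it only with the 9 and 7 events of that library. For RNU12, also among the 5, the beads library had 401 CPM and replicate 3 had 390. With 1 library on a side the power is low for changes of 2 on the log2 scale and for decreases. This was seen in simulated counts of the comparison, with the same dispersion for every gene. Of genes raised in the beads library by 2, 3 and 5, the test called 3 of 34, 16 of 33 and 28 of 33. Of genes lowered by as much it called 0, 1 and 1.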

How the data were processed

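The files cover 4 iiCLIP libraries of PR100-FLAG in HEK293T cells. The authors demultiplexed the reads with iMaps, collapsed PCR copies by random barcode, mapped them with STAR (version not given in the sources used here) to GRCh38 with Gencode 27, allowing 2 mismatches, kept uniquely mapping reads and deposited, without normalisation, the count of unique cDNAs at each crosslinked position, with significant clusters from iCount per library and pooled. Summing the libraries gave the pooled positions exactly.

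From these, events on the strand of each gene of GENCODE 44 were summed per library and divided by the library total (CPM) and by gene length. Single libraries hold few events of a member, and intervals and floors cover counting error only. Sequences were read from GRCh38 and folded with ViennaRNA 2.7.2. Uniqueness is the length of exact matches of 20 nt or more elsewhere in the primary assembly, so mismatches and spliced reads are not covered. Shares were compared over libraries by exact sign-flip permutation tests. The purification was fitted with edgeR 4.0.16 (TMM) in R 4.3.3 over all genes with at least 20 pooled events, adjusted by Benjamini-Hochberg, with DESeq2 1.42.0 as an alternative. The fit was tested on simulated data with 200 changed genes, and 1 of 10114 unchanged genes was called. Sequence of the 7SL genes is not reported here. Other steps used Python 3.11.15, pandas 2.3.3, numpy 2.4.6, scipy 1.17.1, pysam 0.24.0 and matplotlib 3.10.9.

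All 10 members are named. Other lists are given by counts and by at most 4 genes with the most events, plus genes named for their role after their values were seen. The members, lists and tests were chosen with earlier results of these data known, along with 48 alternatives, and 8 were added after seeing the data. The closing section gives their effect. Of 13 other small structured RNA genes listed, 12 were found in the annotation.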

Additional observations from a re-analysis of the deposited data

Results flagged for a closer look

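Over the 4 libraries 33 values were examined. In 2 of them a library stood apart from the others by more than Dixon's critical gap at the 95% level. Chance passes this gap in about 1 in 20 groups of continuous values. In both flagged values the other libraries were equal, so that any difference passes and this rate does not apply. RNU4ATAC had 6.61 CPM in replicate 2, the deepest library, and 0 in the other 3. In replicates 1, 3 and 4 a single event would be 2.99, 7.96 and 5.57 CPM. There 0 events allow up to 8.98, 23.9 and 16.7 CPM (3 counts, counting error only). Taken singly, each 0 thus allows a level of 6.61 CPM, while the 3 together were not tested. The sense strand share was 99.0% in replicate 3 and 100% in the others, which is a single event on the opposite strand of RN7SL2.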

How the results depend on the processing

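Of 82 alternative values for the main comparisons, 71 kept their direction or stayed within the limits of the main value. These limits were wide. A share had only to keep its sign, and the median density to stay within its SD of 12.3 around 15.5 CPM per 100 nt. Of the 82, 7 were of the sense strand share, which says nothing on binding and could hardly change. No paired analysis was possible because all libraries belong to 1 group. The difference between RNU12 and RN7SK, 38.8 CPM per 100 nt, ranged from -11.5 (without replicate 3) to 88.8 when a replicate was left out and was -2.37 with each position counted once. Of the members, 1 to 2 had at least 200 events when a replicate was left out (1 without replicate 2), 1 had at least 400 events, 0 had 200 with each position counted once, and 0 had 200 inside no other annotated gene, since RN7SK and RNU12 share their strand with a second annotation. For the beads comparison edgeR called 0 to 19 genes when an SDS-PAGE replicate was left out (8 without replicate 2 and 19 without replicate 3), and leaving out replicate 4 could not be fitted. The log2 fold change of RNU11 ranged from -0.77 to 0.16 (without replicate 2) with a replicate left out and was 0.64 with each position counted once, and that of RN7SL1 ranged from -0.050 (without replicate 2) to 1.36. Near GANGA motifs the difference from the share of nucleotides, 9.74 points, became -1.46 for GAAGA alone, -9.13 without RNU12 and 30.2 without RN7SK. In the 5′ 50% of the RNAs the difference of -22.7 points became 1.02 without RN7SK and was -13.6 over starts unique within 40 nt. The cause of these changes was not tested. Depth limits every statement on members under about 50 pooled events, for which replicate 3 mostly held 0, and the sign-flip test over 4 libraries cannot pass 0.05.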

Other observations

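Among 12 other small structured RNA genes, 7 had an event, beside 46.7% of all annotated genes. SNORD3A, the U3 RNA of ribosomal RNA processing, had 31, 66, 34 and 177 events in replicates 1 to 4. It was the only one of them with at least 200, beside 1.22% of all annotated genes. RNU7-1, the U7 RNA of histone mRNA 3′ end processing, had 29 events. The Y RNA genes RNY1, RNY3 and RNY4 had 0.

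Annotated copies of RN7SK also carried events. Of 293 copies, 109 had at least 1 event and together they had 358, compared with 616 at RN7SK itself, with at most 21 on a single copy (RN7SKP55). The copies of RN7SL numbered 678, of which 52 had an event, with 79 events in all and at most 4 on a copy. Of all genes of at most 400 nt, 1218 of 12217 had an event, as did 46.7% of all annotated genes. RNU5A-8P, a copy of RNU5A-1, had 22 events beside the 31 of RNU5A-1. Whether these events came from transcripts of the copies or from reads of the parent RNA that matched a copy better was not tested.

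The genes most like RN7SK in their pattern over the 4 libraries, by the root mean square difference of centred log2(CPM + 0.5) among 765 genes with at least 200 events, were the second annotation of the same locus, 7SK, with 0, SETD5 with 0.19 and MLLT1 with 0.21, against a median of 0.71. SETD5 had 50, 90, 10 and 51 events and MLLT1 had 62, 113, 10 and 69.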
